A study of Homo sapiens with 6 samples.

Results

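The mitochondrial ribosomal protein genes were followed in HK2 cells, an immortalised line of human kidney proximal tubular epithelium. They were taken as every gene of the count table whose symbol is MRPL or MRPS followed by a number and at most 1 letter and that had at least 10 counts in at least 3 samples. Of the 38100 genes in the table, 78 met this rule, 49 with an MRPL and 29 with an MRPS symbol. Every symbol of this form passed the count minimum, and all 78 were among the 17720 genes tested, so no member was lost to a filter on low values. The cells carried either a control adenovirus (AdCtrl, an empty vector by the study's methods) or an adenovirus that encodes SIRT4 (AdSirt4), and both groups were stimulated with TGF-β1, a cytokine that drives fibrosis. Each group had 3 samples, and these 6 were the whole series. All were given the genotype WT and the same tissue, kidney, and cell type, tubular epithelial cells. Without a sample that had not received TGF-β1 or the virus, the values describe SIRT4 overexpression in stimulated, infected cells of 1 cell line.

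Mitochondria keep their own ribosome, which makes the few proteins that the mitochondrial genome encodes, all of them core parts of oxidative phosphorylation. Its RNA comes from mitochondrial DNA, but every one of its proteins is encoded in the nucleus, translated in the cytosol and imported. Many of these proteins have a bacterial counterpart, a heritage of the organelle's ancestor, while others are found in mitochondrial ribosomes alone. Proximal tubule cells are rich in mitochondria, and SIRT4 is a sirtuin best known from the mitochondrial matrix. The 78 genes fall by the place of their product into 30 proteins of the large subunit with a bacterial counterpart, 21 of the large subunit without one (MRPS18A and MRPS30 among them, in spite of their symbols), 16 of the small subunit with a bacterial counterpart and 10 of the small subunit without one. The remaining gene, MRPS36, has a matching symbol, but its product is now assigned to the 2-oxoglutarate dehydrogenase complex and not to the ribosome.

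The genes lie on 21 chromosomes, and their promoters share short sequences more than their location. In the RefSeq windows of GRCh38.p14, which run from 250 bases before to 50 bases after a gene's start and were available for 69 of the 78 genes, both strands were searched for the core motifs of 3 factors known from promoters of nuclear genes for mitochondrial proteins. The YY1 core AAGATGGC stood in 20 of the 69 windows (29%), against 4.69% of the windows of 13580 tested genes and 3.03% of all 27195 windows. The ETS core CCGGAAG, which GABPA (NRF2) can bind, stood in 29 (42%), against 17.1% and 10.7%. The palindromic NRF1 core, with its middle base left free, stood in 8 (11.6%), against 10.5% and 6.30%. In 13 of the windows the YY1 core was followed by GG (18.8%, against 2.38% and 1.29%), and these are part of the 20. Both the YY1 and the ETS core were present in 8 windows, and 24 windows held none of the 3. A match is a run of letters and says nothing about whether a factor binds there in these cells.

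The YY1 core lay mostly in 1 place and direction. In 15 of the 20 windows it began 6 to 35 bases after the annotated start, and in all 15 it was read on the gene's own strand, which puts it in the first transcribed bases. Of the 637 tested genes with the core, 57.8% had it after the start. The ETS core began at or after the start in 3 of the 29 windows, against 14.4% of the 2323 tested genes with this core. Its upstream place was thus near that of all genes. It lay within 100 bases before the start in 21 of the 29 windows, a share not taken over all genes. The following sites are shown to let these positions be read, from the genes with the highest and lowest levels, from those that stood out in the comparison, and from MRPL17 for its NRF1 core. Each is 28 bases on the gene's strand, 5′ to 3′, with the motif in capitals.
MRPL20, YY1, chr1:1407261-1407288, minus strand: cgacccgggcAAGATGGCagcggcgctg
MRPL51, YY1, chr12:6493224-6493251, minus strand: ggtaaggcccAAGATGGCtgtcttcgcc
MRPS24, YY1, chr7:43869481-43869508, minus strand: cgcttggcccAAGATGGCggcctccgtg
MRPL42, YY1, chr12:93467512-93467539, plus strand: ggattgaaacAAGATGGCgggttcgtgg
MRPS27, YY1, chr5:72320207-72320234, minus strand: ggtacgctccAAGATGGCtgcctccata
MRPL3, ETS, chr3:131502986-131503013, minus strand: gtaaaacgcaCCGGAAGtgggtccggcg
MRPL33, ETS, chr2:27771701-27771728, plus strand: gggccgtgccCCGGAAGcagttgttgtt
MRPS31, ETS, chr13:40771205-40771232, minus strand: aggcgccaggCCGGAAGcggaagagagg
MRPL17, NRF1, chr11:6683403-6683430, minus strand: ggctctgatGCGCATGCGCaaacacgtt
MRPL17 was the only member with the full NRF1 palindrome, its middle base included, which 2.11% of the tested genes had. The genes called in some fit below, MRPL1, MRPL24, MRPL34 and MRPS5, were all among the 24 of 69 windows that held none of these cores. MRPL1 and MRPL24 were called higher, and MRPL34 and MRPS5 lower. Whether the lack of a core goes with a call was not tested.

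The libraries held 41537353 to 85684748 counts, and every member was well covered, with 419 counts at the least in any sample. AdSirt4 replicate 1, the smallest library, stood apart from the other 5. It held the highest value of the 6 samples in 36.6% of all genes tested, and short genes had more and long genes fewer counts in it. The overexpressed gene, SIRT4, had 31, 47 and 57 counts over the AdCtrl and 1996, 7995 and 6827 counts over the AdSirt4 samples, in the order of replicates 1, 2 and 3 that all values of single samples follow, so every AdSirt4 library carried the overexpressed transcript. Of 5 epithelial markers, KRT8, KRT18, KRT19 and EPCAM were strongly expressed and CDH1 had 22 to 67 counts, while of 9 proximal tubule markers only GGT1 was strongly expressed, SLC22A8 had no count in any sample and LRP2 none in 4. The fibroblast markers COL1A1 and LUM (688 to 2108 and 671 to 1381 counts) and the macrophage marker CD68 (1552 to 3132 counts) were expressed, COL3A1 and the T cell marker CD3E were at 0, and the summed level of 4 endothelial markers did not exceed 0.522 CPM. All samples were read as HK2, as the titles say, although the cell line label counts up by 1 from sample to sample. The study's reporting form states that n stands for technical replicates in vitro, so p-values may measure only technical spread.

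Levels between genes were compared in FPKM, which divides by gene length. In AdCtrl cells the 78 genes had a median of 21.1 FPKM, and 77 of them lay above the median of all genes tested, 4.49 FPKM. MRPL33, a small protein of the large subunit, had the highest level, 104.1 ± 3.61 FPKM (SD, n = 3). MRPL3, which reaches towards the peptidyl transferase centre, followed with 90.8 ± 5.48 FPKM (SD, n = 3), and MRPL51, a mitochondria-specific protein of the large subunit, with 83.9 ± 5.42 FPKM (SD, n = 3). MRPL37 (73.5 ± 4.71 FPKM), also mitochondria-specific, and MRPS24 (73.4 ± 5.63 FPKM), the counterpart of bacterial S3 at the mRNA entry of the small subunit, had levels that did not differ beyond their spread. Along the whole order from high to low, all 3 AdCtrl samples of a gene lay above those of the next gene in 9 of 77 neighbouring pairs, so most neighbours overlapped.

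The lowest levels belonged to MRPL42 with 3.52 ± 0.420 FPKM, MRPS33 with 5.47 ± 0.180 FPKM and MRPS23 with 6.05 ± 0.254 FPKM (SD, n = 3 each), all mitochondria-specific. The genes spanned 29.6-fold, although most of the products stand in the ribosome in equal number. The low end was also where the lengths behind the FPKM were long. The lengths that the count and FPKM tables together imply were 17.8 kb for MRPL42, 4.86 kb for MRPS33 and 6.43 kb for MRPS23, against a median of 1.52 kb for the 78 genes. Annotated exons of MRPL42 cover 16393 bases in GENCODE v29, fewer than its implied length. Those of MRPL19 cover 4601 bases against an implied 8.96 kb, while those of MRPL20 cover 2788 bases against an implied 0.823 kb. An implied length is thus not always a transcript length. The part of the long implied length of MRPL42 in its low FPKM was not tested. By place in the ribosome, the median was 26.7 FPKM for large-subunit proteins with a bacterial counterpart and 17.6 without one, and 23.4 and 19.6 for the small subunit. In the large subunit, single genes ran from 6.63 to 104.1 FPKM with a bacterial counterpart and from 3.52 to 83.9 without one. In the small subunit they ran from 7.50 to 73.4 and from 5.47 to 42.7 FPKM in the same order. The classes thus overlapped, as the plot by class shows.

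**Figure D1:**
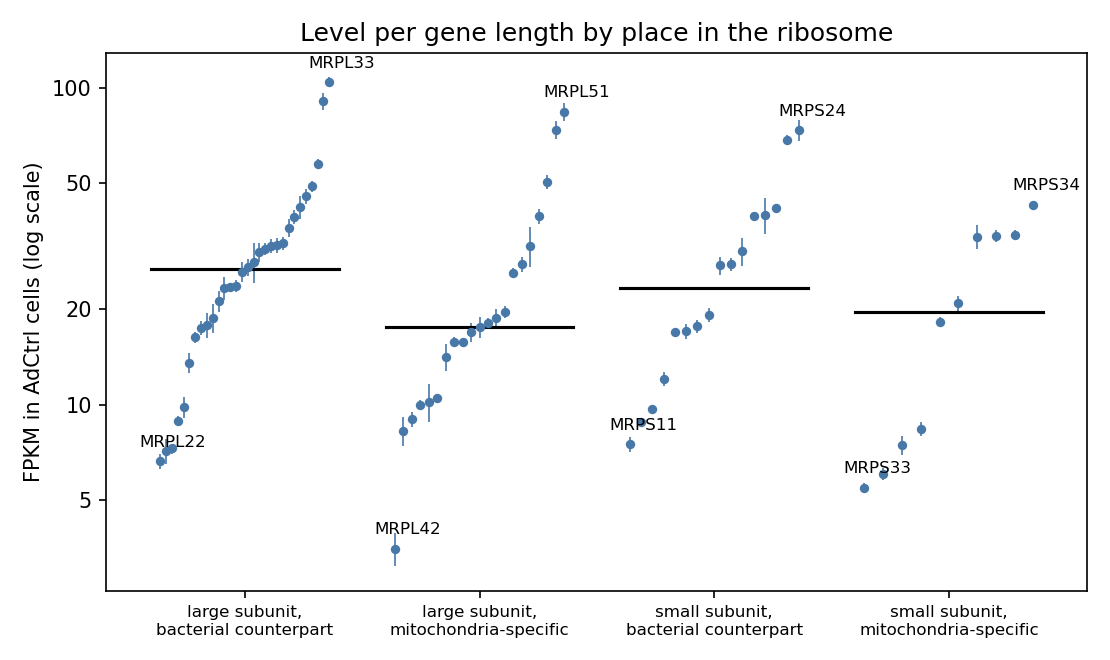
Mean FPKM in AdCtrl cells (log scale) of 77 mitochondrial ribosomal protein genes, grouped by place in the ribosome, with bars for the SD over 3 samples and a line at each class median. Medians run from 17.6 to 26.7 FPKM while single genes run from MRPL42 at 3.52 to MRPL33 at 104.1.

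The samples of the AdCtrl group were close to each other. The coefficient of variation of a member's CPM (the count scaled to the size of its library) had a median of 5.16% and ran from 0.336% to 14.8%, where all genes tested had a median of 6.64%. In the AdSirt4 group, replicates 2 and 3 were as close, with a median difference of 6.21% and at most 21%. Replicate 1 was not. The summed level of the 78 genes was 3293, 3140 and 3089 CPM over the AdCtrl samples and 4653, 3091 and 2944 CPM over the AdSirt4 samples. AdSirt4 replicate 1 alone was high, and AdSirt4 replicates 2 and 3 lay near or below the lower AdCtrl samples. The group sums were therefore 3174 ± 106.1 CPM (SD, n = 3) in AdCtrl and 3563 ± 947.1 CPM (SD, n = 3) in AdSirt4 cells, and 3017 ± 104.2 CPM (SD, n = 2) without AdSirt4 replicate 1. In such bulk RNA, fewer cells of a kind and less RNA per cell cannot be told apart.

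Gene by gene the same library stood out. Against the AdCtrl mean, the median log2 level of the 78 genes was 0.056, -0.0098 and -0.049 over the AdCtrl samples and 0.63, -0.027 and -0.10 over the AdSirt4 samples. AdSirt4 replicate 1 was the highest of the 6 samples for 75 of the 78 genes, and the exceptions were MRPL19, MRPL49 and MRPS27. AdSirt4 replicate 3 was the lowest for 41 of them. The ribosomal proteins of the cytosol, a separate set of short genes, behaved alike in that library, which was the highest for 82 of 82 with a median of 0.80.

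**Figure D2:**
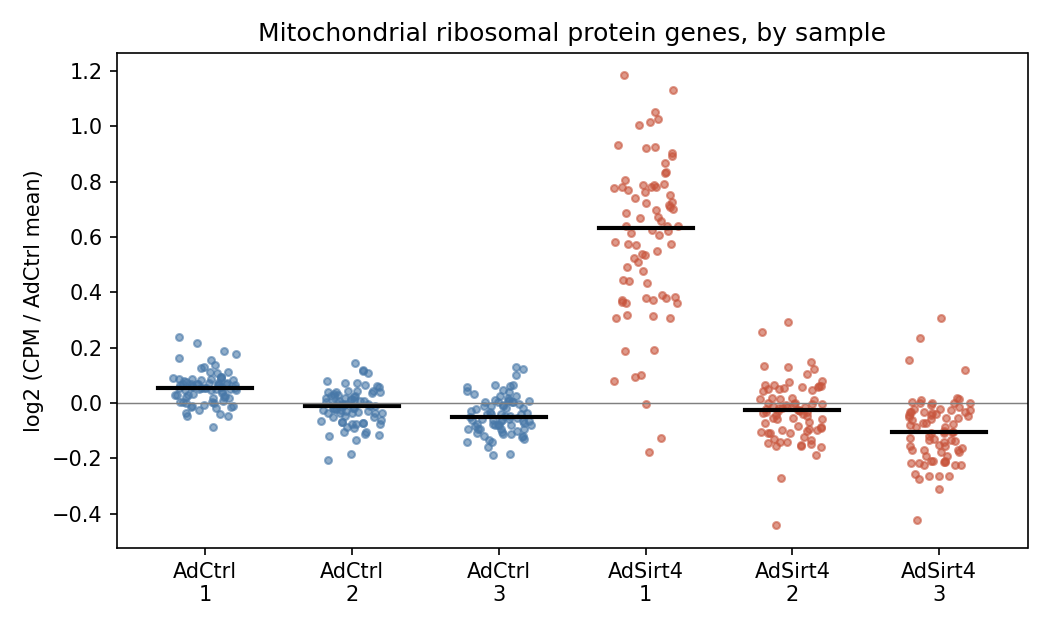
Each point is 1 of the 78 genes in 1 sample, as log2 of its CPM over the AdCtrl mean, and the black line is the median of the sample. The median is 0.63 in AdSirt4 replicate 1 and between -0.10 and 0.056 in the other samples.

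The height of AdSirt4 replicate 1 went with gene length. Its CPM exceeded the mean of AdSirt4 replicates 2 and 3 for 76 of the 78 genes, with a median log2 difference of 0.69, where the median over all genes tested was -0.015. Across the 78 genes this difference had a Spearman correlation of -0.64 with length, and across all genes tested of -0.58. All points share the same 3 libraries, so these are descriptions. The 15 members under 1 kb had a median of 0.91, the 23 from 1 to 1.5 kb 0.82, the 18 from 1.5 to 2 kb 0.53, the 10 from 2 to 3 kb 0.49 and the 12 of 3 kb or more 0.39. All genes tested in the same length classes had medians of 0.71, 0.60, 0.44, 0.24 and -0.24. In every length class the members thus lay above the median of all genes. The longest class showed the largest gap, but lengths within it were unlike. Its members had a median of 4.46 kb and all genes in it 5.31 kb, and among the latter the difference fell with length (Spearman correlation of -0.45).

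Single genes departed from this order. MRPL54, with 0.694 kb, had the largest difference, 1.12, followed by MRPL27 (0.782 kb) with 1.07 and MRPL20 (0.823 kb) with 1.05. MRPL11, with 1.83 kb, came next with 1.05. MRPS33 and MRPS23, with implied lengths of 4.86 and 6.43 kb, still differed by 0.93 and 0.73, while MRPS27, a small-subunit protein of the pentatricopeptide repeat family, was lower in AdSirt4 replicate 1 by a log2 of -0.14. Whether RNA quality, library preparation or the state of the cells set this library apart was not tested.

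**Figure D3:**
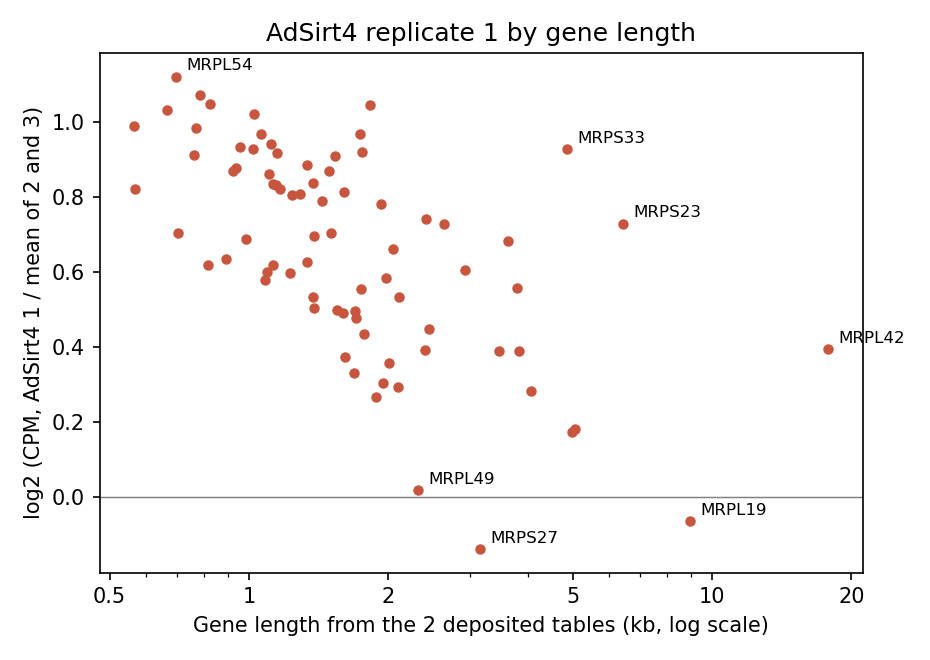
Each point is 1 of the 78 genes, with its length implied by the count and FPKM tables in kb (log scale) on the x axis and the log2 ratio of CPM in AdSirt4 replicate 1 over the mean of AdSirt4 replicates 2 and 3 on the y axis. The points fall with length from a median of 0.91 under 1 kb to 0.39 from 3 kb, and 76 lie above 0.

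The question of the comparison was what SIRT4 overexpression did to gene expression under TGF-β1. With all 6 samples, none of the 78 was called by edgeR's quasi-likelihood test at an adjusted p under 0.05, where 0.0113% of all genes tested were. DESeq2 called none (1.16% of all genes) and limma on log2(FPKM + 1) called none (0% of all genes). At an unadjusted p under 0.05, edgeR had MRPL1 and MRPL24, both higher in AdSirt4 cells, where 4.43% of all genes were higher at this level and 3.5% lower. DESeq2 also had 2 members at this level (9.24% of all genes) and limma 1 (5.82%). A log2 fold change above 0 was found for 70 of the 78 genes, with a median of 0.20, and for 53.4% of all genes tested, with a median of 0.021. The 4 structural classes had medians of 0.20 and 0.20 in the large and 0.20 and 0.17 in the small subunit, in the order with and without a bacterial counterpart. MRPS36 had 0.13.

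Without AdSirt4 replicate 1 the direction of the set turned. The log2 fold change was then below 0 for 65 genes and above 0 for 13, with a median of -0.07, where 49.4% of all genes were above 0 and their median was -0.003. In this fit edgeR called 2 members, MRPL34 and MRPS5, both lower in AdSirt4 cells, and none higher, where 3.34% of all genes were called lower and 3.37% higher. The share of members called lower was near that of all genes. At an unadjusted p under 0.05 there were 16 lower and 2 higher members, against 12.5% and 11.8% of all genes. Lower values in both remaining AdSirt4 samples than in every AdCtrl sample were seen for 23 members, and higher values for 3, where all genes had 20.7% and 21%. With 3 against 3 samples, no member was lower without overlap and the same 3, MRPL1, MRPL24 and MRPS31, were higher, against 9.77% and 9.66% of all genes.

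**Figure D4:**
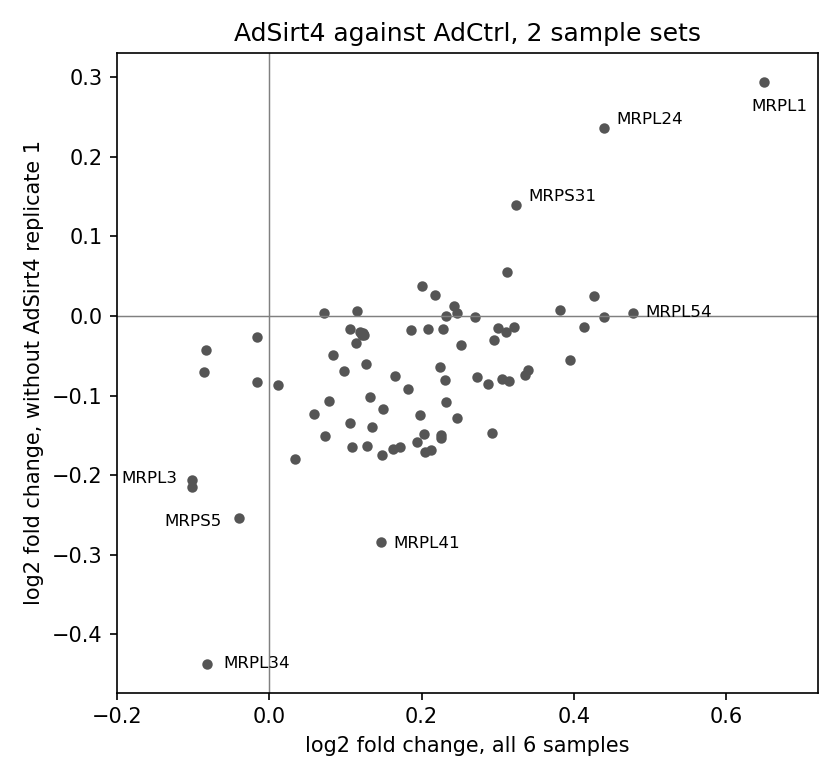
Each point is 1 of the 78 genes, with the edgeR log2 fold change of AdSirt4 against AdCtrl from all 6 samples on the x axis and from the 5 samples without AdSirt4 replicate 1 on the y axis. Along x 70 genes lie above 0, along y 13 do, and MRPL1, MRPL24 and MRPS31 are the highest on y while MRPL34 is the lowest.

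A fit that removed each library's trend on gene length gave values in between. With all samples the median was 0.08, 63 genes were above 0 (53.4% of all genes) and none was called (0.0677% of all genes), while 5 had an unadjusted p under 0.05 (MRPL1, MRPL24 and MRPS31 higher, MRPL3 and MRPL34 lower), against 13.9% of all genes. With both the trend and AdSirt4 replicate 1 taken out, a setting chosen after seeing the data, the median was -0.018, 36 genes were above and 42 below 0 (51.4% of all genes above), and 4 were called, MRPL1 and MRPL24 higher and MRPL34 and MRPS5 lower. This is close to the share among all genes, of which 3.95% were called higher and 3.71% lower.

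Among the large-subunit proteins with a bacterial counterpart, MRPL1 had the largest log2 fold change. MRPL1 (Entrez gene 65008, chromosome 4 of GRCh38, 77862830 to 77952785) encodes the counterpart of bacterial L1, the protein of the mobile stalk at the exit site of the ribosome. Its CPM was 10.04, 9.86 and 9.17 over the AdCtrl samples and 22, 11.9 and 12 over the AdSirt4 samples. The groups did not overlap (exact permutation test, two-sided and unpaired, p = 0.1, which is the smallest possible with 3 against 3), and replicate 1 lay far above the others. AdSirt4 cells differed by a log2 fold change of 0.65 with an SE of 0.25 (edgeR, adjusted p = 0.612) in all samples and of 0.29 with an SE of 0.0854 (edgeR, adjusted p = 0.0642) once AdSirt4 replicate 1 was left out. Removing the length trend as well gave 0.37 (edgeR, adjusted p = 0.0209, the smallest of a range up to 0.971 over the alternatives).

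MRPL24 (chromosome 1, 156737303 to 156742716) encodes the counterpart of bacterial L24, a protein that binds ribosomal RNA early in assembly of the large subunit. It had 64.6, 66.9 and 54.1 CPM over the AdCtrl samples and 105.7, 73.7 and 72.5 CPM over the AdSirt4 samples. The groups did not overlap, and replicates 2 and 3 of AdSirt4 were close above the higher AdCtrl samples. The difference came to a log2 fold change of 0.44 with an SE of 0.173 (edgeR, adjusted p = 0.612), and to 0.24 (edgeR, adjusted p = 0.11) without AdSirt4 replicate 1. Removing the length trend as well gave 0.28 (edgeR, adjusted p = 0.0453, in a range up to 0.971 over the alternatives).

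MRPL34 went the other way once AdSirt4 replicate 1 was set aside. MRPL34 (chromosome 19, 17292573 to 17306843), the counterpart of bacterial L34, is among the smallest ribosomal proteins. Its CPM was 25.2, 25 and 23.7 over the AdCtrl samples and 33.5, 18.1 and 18.4 over the AdSirt4 samples. AdSirt4 replicate 1 was the highest of all samples and replicates 2 and 3 were the lowest, so the groups overlapped over 6 samples. In all samples its log2 fold change was -0.08 (edgeR, adjusted p = 0.914). Once AdSirt4 replicate 1 was left out it was -0.44 with an SE of 0.0688 (edgeR, adjusted p = 0.007, the smallest of a range up to 0.978 over the alternatives).

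MRPS5 (chromosome 2, 95085369 to 95122003) encodes the counterpart of bacterial S5, a small-subunit protein near the decoding site and mRNA entry. It had 67.3, 64.4 and 66.1 CPM over the AdCtrl samples and 81.7, 57.9 and 53.1 CPM over the AdSirt4 samples. The pattern was that of MRPL34, with replicate 1 above and replicates 2 and 3 below all AdCtrl samples. Over all samples the log2 fold change was -0.04 (edgeR, adjusted p = 0.939). It was -0.25 with an SE of 0.056 (edgeR, adjusted p = 0.024, in a range from 0.018 to 0.987 over the alternatives) with AdSirt4 replicate 1 left out.

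**Figure D5:**
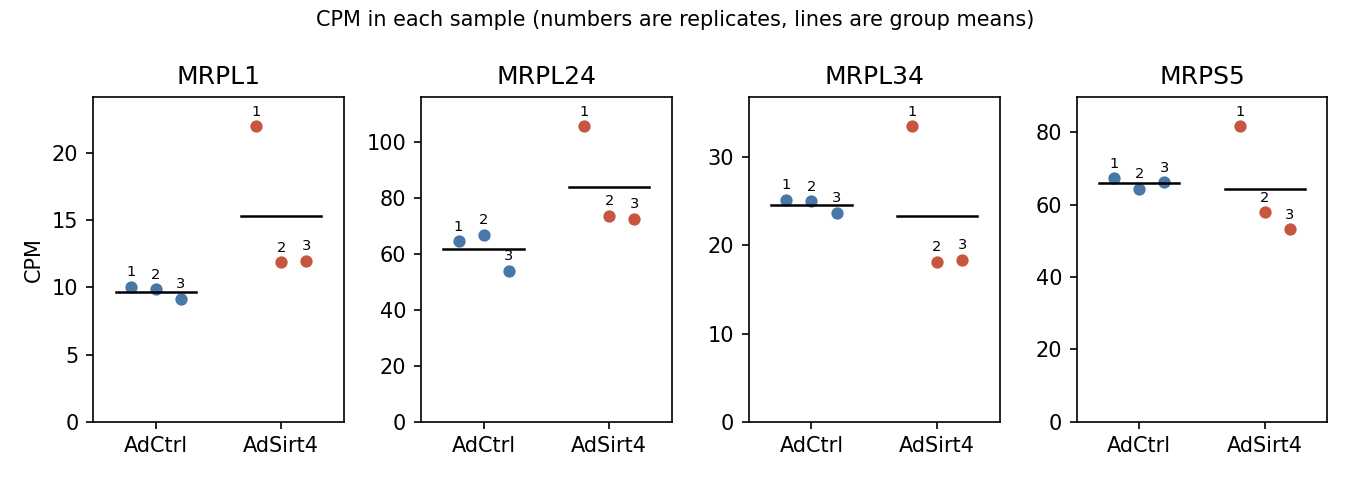
CPM of MRPL1, MRPL24, MRPL34 and MRPS5 in the 3 AdCtrl and 3 AdSirt4 samples, each point numbered by replicate and each line a group mean. AdSirt4 replicate 1 is the highest of the 6 samples for all 4 genes, and AdSirt4 replicates 2 and 3 lie above every AdCtrl sample for MRPL1 and MRPL24 and below every AdCtrl sample for MRPL34 and MRPS5.

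MRPS31, a mitochondria-specific protein of the small subunit, was the third gene without overlap. It had 11.7, 12.7 and 13 CPM over the AdCtrl samples and 19.4, 13.7 and 13.9 CPM over the AdSirt4 samples, and only replicate 1 was clearly apart. Its log2 fold change of 0.32 with an SE of 0.158 (edgeR, adjusted p = 0.678) became 0.14 (edgeR, adjusted p = 0.315) without AdSirt4 replicate 1. MRPS17, the counterpart of bacterial S17, which binds ribosomal RNA, had 0.31 and 0.06 in the same order. MRPL20, an assembly protein of the large subunit in bacteria, had 0.44 and -0.0017, and MRPS6, a counterpart of bacterial S6, had 0.43 and 0.03. Their adjusted p was 0.72 or more with all samples.

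The genes with the smallest p among those below 0 changed little when AdSirt4 replicate 1 was left out, or moved further down. MRPS27 had a log2 fold change of -0.08 with all samples and -0.04 without that replicate, and MRPL19, a protein at the subunit interface in bacteria, -0.09 and -0.07. MRPL35, a small protein of the large subunit, had -0.10 and -0.21, and MRPL3 had -0.10 and -0.21 as well. MRPL3 was measured at 185.9, 168.9 and 170.3 CPM over the AdCtrl samples and 186.8, 157 and 145.6 CPM over the AdSirt4 samples. Its AdSirt4 replicate 1 was level with the highest AdCtrl sample, unlike that of most members. For MRPL3 and MRPL35, edgeR gave an adjusted p of 0.0615 and 0.0816 once AdSirt4 replicate 1 was left out, in ranges up to 0.971 over their alternatives.

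The other genes nearest to a call without AdSirt4 replicate 1 did not pass. MRPL28, the counterpart of bacterial L28, had a log2 fold change of -0.18 (edgeR, adjusted p = 0.0986) and MRPS15, which binds ribosomal RNA in the small subunit, -0.15 (edgeR, adjusted p = 0.116), against 0.03 and 0.07 with all samples. MRPL41, a small mitochondria-specific protein of the large subunit, had a lower value, -0.28, but a wider spread in AdCtrl cells, 24.5, 19.3 and 19 CPM, and was not called (edgeR, adjusted p = 0.136, in a range up to 0.979 over the alternatives). MRPL45, which lies at the exit of the peptide tunnel and helps to hold the ribosome to the inner membrane, had 0.04 without the replicate and 0.20 with it. MRPS22, a mitochondria-specific small-subunit protein, had 0.03 and 0.22. The most highly expressed members moved with the set. MRPL33, MRPL51, MRPS24 and MRPL37 had log2 fold changes of 0.31, 0.41, 0.25 and 0.06 with all samples and -0.02, -0.01, -0.13 and -0.12 without AdSirt4 replicate 1. The lowest, MRPL42, MRPS33 and MRPS23, had 0.12, 0.23 and 0.25 and then -0.02, -0.15 and -0.04. None of these 7 was called in either fit.

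Genes with and without a promoter motif had like values. The median log2 fold change was 0.19 for the 20 genes with the YY1 core and 0.20 for those without, and -0.05 and -0.07 without AdSirt4 replicate 1. For the ETS core it was 0.23 with and 0.17 without, and -0.08 and -0.05 without that replicate.

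The proteins of the ribosome that carry other symbols gave the same picture. DAP3 (also a cell death factor), AURKAIP1, CHCHD1, PTCD3 and GADD45GIP1 had log2 fold changes of 0.12, 0.22, 0.31, 0.04 and 0.32 with all samples. The values were -0.12, -0.17, -0.19, 0.002 and -0.12 without AdSirt4 replicate 1, and none was called. DAP3, a GTP-binding protein of the small subunit, had 102.6, 95.2 and 102.9 CPM over the AdCtrl samples and 142.2, 92.0 and 92.6 CPM over the AdSirt4 samples. AdSirt4 replicate 1 was the highest, as in most members, and both other AdSirt4 samples lay below the AdCtrl group.

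The wider machinery of mitochondrial gene expression, 67 genes with these 5 included, had a median log2 fold change of 0.10. Of these genes, 49 were above 0 (53.4% of all genes tested) and none was called in edgeR (0.0113% of all genes). At an unadjusted p under 0.05 in edgeR, 2 were higher and 1 lower, against 4.43% and 3.5% of all genes. The median length of the 67 genes was 2.94 kb. The 22 assembly factors had a median of 0.18 with 18 above 0, and 0.04 with 14 above 0 without AdSirt4 replicate 1. The 15 translation factors had 0.09 with 11 above 0, and 0.02 with 8. The 6 genes of mitochondrial transcription had 0.22 with 5 above 0, and 0.07 with 4. The 19 aminoacyl-tRNA synthetases, which charge the mitochondrial tRNAs, had 0.009 with 10 above 0, and -0.05 with 5. Among all genes tested, 53.4% were above 0 with all samples and 49.4% without AdSirt4 replicate 1.

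In each list the genes with the smallest p were as follows. MTERF4, which brings a methyltransferase to the large subunit, had a log2 fold change of 0.23 with all samples and 0.18 without AdSirt4 replicate 1, and FASTKD2, an RNA-binding assembly factor, 0.18 and 0.12. TSFM, the exchange factor of the elongation factor Tu, had 0.38 and 0.08, and the initiation factor MTIF3 had 0.35 and 0.02. TFB2M, which opens mitochondrial promoters for the polymerase, had 0.31 and 0.20, and MTERF1, a terminator of transcription, 0.28 and 0.15. None of these was called by edgeR in either fit. With the length trend and AdSirt4 replicate 1 both removed, TFB2M was called higher (edgeR, adjusted p = 0.0479, in a range up to 0.971 over the alternatives).

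PARS2, the prolyl-tRNA synthetase of mitochondria, was among the companion genes whose level in AdSirt4 replicate 1 was close to that of the other AdSirt4 replicates. It had 8.90, 8.31 and 9.11 CPM over the AdCtrl samples and 6.59, 6.73 and 6.08 CPM over the AdSirt4 samples. All AdSirt4 samples were lower than all AdCtrl samples and close to each other. PARS2 had a log2 fold change of -0.44 with an SE of 0.109 (edgeR, adjusted p = 0.494) in all samples and of -0.46 (edgeR, adjusted p = 0.0253) with that replicate left out, in a range from 0.0251 to 0.971 over the alternatives. DESeq2 called it lower with all samples (DESeq2, adjusted p = 0.0415). On simulated data DESeq2 made 63 false calls where edgeR made 6, so this call is less certain. GARS1, the glycyl-tRNA synthetase that serves the cytosol and mitochondria, had -0.23 and -0.22 and was not called in either.

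The cytosolic ribosomal protein genes, the set most like the members in length and in AdSirt4 replicate 1, had a median log2 fold change of 0.29 with all samples. Of the 82, 81 were above 0 (53.4% of all genes) and none was called (0.0113%). Without that replicate the median was -0.06 with 18 above 0 (49.4% of all genes), and edgeR again called none (6.71% of all genes called). At an unadjusted p under 0.05 in this fit, 1 was higher and 3 were lower, against 11.8% and 12.5% of all genes. Their values and those of the mitochondrial ribosomal protein genes come from the same 6 libraries.

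Some members share sequence or exons with other genes. For 34 of the 78, GENCODE v29 lists at least 1 pseudogene, 75 in all, with 8 for MRPS21, and none of these pseudogenes was in the count table, so their reads may have been lost or counted with the parent. Another gene overlapped at least 25% of the exon bases of 10 members, MRPL9, MRPL12, MRPL38, MRPL43, MRPL51, MRPL53, MRPS17, MRPS18A, MRPS18C and MRPS28. Whether counting used strand was not stated, so the values of these 10 are less certain. MRPL1, MRPL24, MRPL34 and MRPS5 were not among them. MRPL34 (13.2%) and MRPS5 (8.19%) shared exon bases with another gene below this threshold, and MRPL1 and MRPL24 shared none. Among the most highly expressed members, MRPS24 (23.2%) and MRPL33 (21.1%) also lay just below it. Their partners, URGCP-MRPS24 and BABAM2, are on the same strand and in the count table. The levels of MRPS24 and MRPL33 are therefore less certain too.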

How the data were processed

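Poly-A RNA of 6 HK2 samples was sequenced from DNA nanoball libraries. The authors deposited raw counts per gene. Their other table covers the same genes, names no unit, and was taken from its values to hold FPKM made by the authors. The submitters' processing notes list fastp 0.21.0, HISAT2 2.1.0, StringTie 2.1.5, DESeq2 1.30.1 and hg38, with no order or role. A count of 2 was 3.20 to 3.70 times as common as a count of 1, so a fragment may have been counted as a read pair, and counts are not independent molecules. Library totals limit the precision by counting error only.

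Counts were tested with edgeR 4.0.16 in R 4.3.3 (filterByExpr, TMM, robust quasi-likelihood test, Benjamini-Hochberg adjustment over all genes tested, threshold 0.05). Gene length was taken as the count over FPKM and library size. This implied length, used for the length classes and the length trend, exceeded the annotated exon bases of some genes, such as MRPL19 and MRPL42. For single genes an exact permutation test, two-sided, was run as well. Samples with the same replicate number deviated together (Pearson r across genes of 0.178, 0.159 and 0.176, others from -0.188 to 0.030), so the numbers may mark pairs. The main fit, the fits that leave out a sample and the permutation test did not use this pairing. A replicate block, which does, was an alternative. Others were DESeq2 1.42.0, RLE, filters of 1 count and of 10 counts in every sample, limma 3.58.1 on log2(FPKM + 1), with a pseudocount of 0.1 or a mean FPKM of at least 1, removal of each library's loess trend on length (span 0.5), and each sample left out. On simulated data for AdSirt4 against AdCtrl (17430 genes, 200 changed 2- or 4-fold), edgeR called 140 of the 200 with 6 false calls. DESeq2 called 161 of the 200 with 63 false calls. With a length trend in such data (17420 genes), edgeR called 110 of the 200 with 3 false calls. With that trend removed, 143 of the 200 were called with 6 false calls. How well edgeR calls genes that differ by less than 2-fold was not tested.

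The members, companion lists, markers and motifs were chosen from general knowledge with earlier results of these data known. Genes named one by one were those with the smallest p in each direction with all samples and without AdSirt4 replicate 1 (up to 6 each), the 5 highest and 3 lowest by FPKM, the 5 subunits under other symbols, 2 per companion list and SIRT4. MRPL41, MRPL54, MRPL27, MRPL11, MRPL49, MRPL17 and MRPS36 were named after their values were seen. Promoter windows, gene positions and strands came from RefSeq GRCh38.p14 by symbol (77 of 78 positions, 69 of 78 windows, the first listed for each gene), and pseudogenes and exon overlap from GENCODE v29. Genes encoded in mitochondrial DNA were not analysed here.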

Additional observations from a re-analysis of the deposited data

How the results depend on the processing

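Leaving out AdSirt4 replicate 1 changed the most. The number of mitochondrial ribosomal protein genes called in edgeR was 0 with all samples, 0 to 2 with each sample left out, and 4 without AdSirt4 replicate 1 and the length trend. Their median log2 fold change was 0.20, ran from -0.07 to 0.32 with each sample left out, and was 0.148 with the replicate block, 0.11 in limma on log2(FPKM + 1) and 0.08 with the length trend removed. Companion genes called numbered 0, 1 in DESeq2, 0 to 1 with a sample left out, and 2 without the length trend and AdSirt4 replicate 1. Over all genes, 2 were called, 206 in DESeq2, 5 with a filter of 1 count, 4 with 10 counts in every sample, 1 with the replicate block, 0, 1 and 5 in limma (pseudocount 1, pseudocount 0.1, mean FPKM of at least 1), 12 with the length trend removed, 6 with the block as well, 0 to 1227 with a sample left out and 1400 with AdSirt4 replicate 1 and the length trend removed. The block changed the call of no named member or companion.

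Named genes whose log2 fold change turned sign were these. With the length trend removed it was 0.052 for MRPL19, -0.072 for MRPL28, -0.067 for MRPS15 and -0.044 for MRPL37, and with the block as well 0.040, -0.072, -0.067 and -0.043. MRPL28 had -0.021, -0.022 and -0.021 in the limma fits. Without the trend and AdSirt4 replicate 1, values were -0.12 for MRPL28, -0.067 for MRPS15, -0.024 for MRPS24, -0.064 for MRPL37, -0.12 for MRPL42, -0.16 for MRPS33, -0.059 for MRPS23, -0.094 for DAP3, -0.080 for AURKAIP1, -0.099 for CHCHD1, -0.033 for PTCD3 and -0.074 for GADD45GIP1. The range over the fits that leave out 1 sample was -0.0017 to 0.63 for MRPL20, -0.44 to 0.077 for MRPL34, -0.25 to 0.080 for MRPS5, -0.18 to 0.14 for MRPL28, -0.15 to 0.20 for MRPS15, -0.020 to 0.47 for MRPL33, -0.014 to 0.61 for MRPL51, -0.13 to 0.43 for MRPS24, -0.12 to 0.15 for MRPL37, -0.024 to 0.20 for MRPL42, -0.15 to 0.41 for MRPS33, -0.037 to 0.41 for MRPS23, -0.12 to 0.23 for DAP3, -0.17 to 0.40 for AURKAIP1, -0.19 to 0.53 for CHCHD1 and -0.12 to 0.52 for GADD45GIP1. The cause was not tested.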
